A study of Ginkgo biloba with 15 samples.

Results

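In the Ginkgo biloba gene table, 3244 annotated gene models lay so close behind one another on the same strand that they formed 1556 clusters. Members were chosen by position alone. Annotated models were sorted along each scaffold, and neighbours on the same strand that did not overlap and had a gap of 10 kb or less between them were joined, with chained pairs merged into a cluster. The 3244 members were 7.75% of 41840 annotated models, in a table of 43690 models in all, and they formed 1688 neighbouring pairs on 1283 scaffolds. No expression value entered the choice.

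Ginkgo biloba is a gymnosperm tree whose embryo goes on developing inside the seed through autumn and winter. Embryos were collected from healthy trees growing outdoors, without any treatment, in 3 months of one season, September and November of 2015 and the following February, with 2 mRNA libraries per month. Reads in gene models numbered 14331674 to 19411573 per library. They were recovered from the deposited FPKM, a level scaled by gene length and library depth, where the read number came out whole. The full number of reads of a library may be larger. No label says whether libraries of a month came from separate trees or seeds, so a p-value speaks for the spread among the libraries alone, and that spread may be technical. The files give each identifier a position but no gene name, so the embryo label could not be checked against markers and clusters are named by scaffold and position, on a genome build not given in the sources used here. In whole embryos, fewer cells of a type and less RNA per cell cannot be told apart.

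Genes of plants often sit in tandem arrays, rows of related copies on the same strand that arise when unequal crossing over duplicates a stretch of chromosome. Copies can keep a shared expression pattern, take on different patterns or fall silent, and families for defence and for specialised metabolism are known for such arrays. Close neighbours need not be copies, however. Unrelated genes can lie side by side, and a gene model broken in an assembly with long introns also appears as a close same-strand pair. The files hold no sequence, so these kinds of pair cannot be told apart here, and reads shared by near-identical copies make the levels of such copies uncertain.

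Most clusters were simple pairs. There were 1441 clusters of 2 genes, 100 of 3, 13 of 4 and 2 of 5, with 1639 members on the plus strand and 1605 on the minus strand. Gaps had a median of 3536.5 bases, with quartiles of 1471 and 6327 bases, and 38 pairs were less than 100 bases apart. Among all close neighbours that did not overlap, same-strand pairs (1688) outnumbered opposite-strand pairs (1399). They did so at wider gaps too (14653 against 11495), so the larger same-strand count was not particular to close neighbours. The same-strand pair with the widest gap inside the limit (9997 bases, scaffold 5901, plus strand, 249313 to 264026) held a gene at 0 FPKM in all 6 libraries beside one at 3.15 to 16.7 FPKM. The pair just outside it (10002 bases, scaffold 4575, minus strand, 2515019 to 2526439) held a gene at 0 FPKM in 5 of the 6 libraries and one at 0 in all.

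Members were shorter than annotated models at large. Their listed length had a median of 690.0 bases, against 897 bases over all annotated models, and their genomic span a median of 1188.5 bases, against 1768. In 32.4% of members the listed length equalled the span, a model without an intron, against 26.0% of all annotated models. The listed length was a multiple of 3 in 88.7% of members, close to the 85.8% of all annotated models. An annotated gene on the other strand overlapped 368 members (11.3%), against 22.8% of all annotated models. Since the use of strand in counting is not given, reads of such overlapping genes cannot be told apart.

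Pairs of closely similar length were about as frequent among close neighbours as among distant ones. The shorter gene reached at least 0.9 of the longer in 206 of 1688 close same-strand pairs (12.2%), against 12.5% of 14653 same-strand pairs with a gap over 10 kb and 8.43% of 1399 close opposite-strand pairs. Exactly equal lengths were found in 46 close same-strand pairs (2.73%), against 1.17% of distant same-strand and 0.572% of close opposite-strand pairs. The median length ratio was 0.52 in close same-strand pairs, against 0.536 in distant and 0.488 in opposite-strand pairs. These shares are descriptions without a test. The histogram of length ratios shows all 3 kinds of neighbours spread over the whole range, with opposite-strand pairs higher at the lowest ratios and lower in the last bin.

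**Figure D1:**
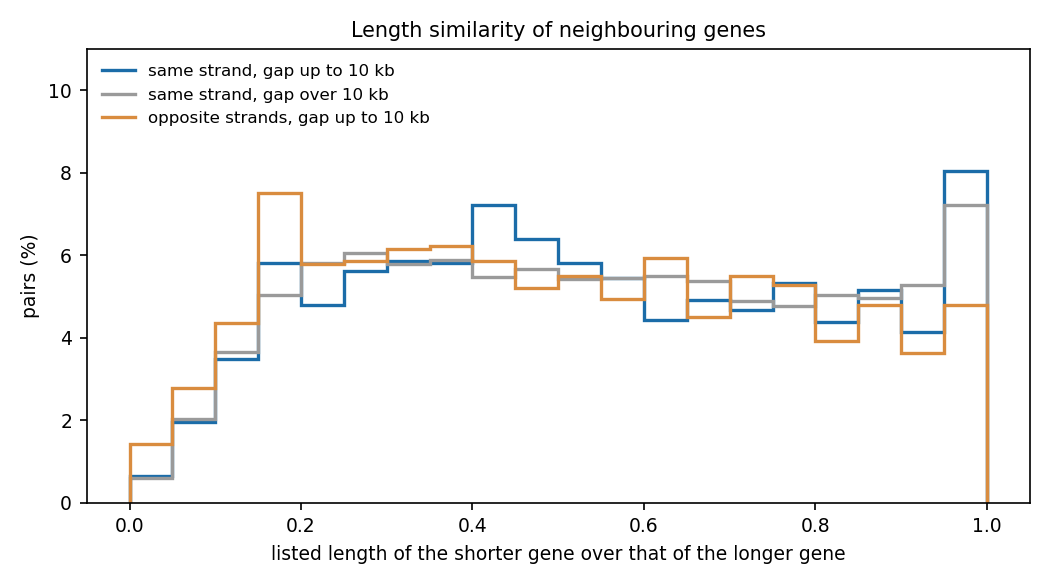
Share of pairs (%) by length ratio, the listed length of the shorter gene over that of the longer, in bins of equal width. Lines show same-strand pairs with a gap up to 10 kb (1688 pairs), same-strand pairs with a wider gap (14653) and close opposite-strand pairs (1399). In the last bin close same-strand pairs reach 8.06% and opposite-strand pairs 4.79%.

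Fewer members than other genes were detected. A level of at least 1 FPKM in at least 2 libraries was the minimum for a test, and 1343 members (41.4%) passed it, against 51.3% of all annotated models. The share listed at 0 in all 6 libraries was closer to that of other genes, with 1044 members (32.2%), against 30.0% of all annotated models. In single libraries, 1151 to 1215 members reached 1 FPKM, with overlapping ranges between the months. Members that passed had a median of 7.05 FPKM over the 6 libraries, against 11.6 FPKM for all annotated genes that passed.

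Both genes fell short of the minimum more often in close same-strand pairs than in the other kinds of pair. Neither gene passed in 722 close same-strand pairs (42.8%), against 26.4% of distant same-strand and 36.0% of close opposite-strand pairs. Exactly 1 gene passed in 558 pairs (33.1%), against 41.8% of distant same-strand and 42.9% of close opposite-strand pairs. Both passed in 408 (24.2%), against 31.8% and 21.1% in the same order. Both genes stood at 0 in all libraries in 293 pairs (17.4%), against 10.4% of distant same-strand and 14.2% of close opposite-strand pairs. Of pairs of similar length, both genes passed in 34 of 206 (16.5%), against 374 of 1482 other close pairs (25.2%), and of the 46 pairs with identical lengths 29 had no gene that passed. Larger clusters followed the same description, with 32.7% of the genes of 3-gene clusters passing, against 42.7% of those of 2-gene clusters. None of these differences was tested, and the lower share of members that passed at all was not allowed for.

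The 5-gene cluster on scaffold 13409 (minus strand, 1203374 to 1220489) had its highest level in its first gene. In the order of transcription, that gene (2019 bases) held 59.2 and 56.6 FPKM in September, 30.3 and 28.8 in November and 19.3 and 15.3 in February. The months did not overlap, and February was lower than September by a log2 change of -1.70 (limma, SE 0.17, adjusted p = 0.00047). The next 2 genes stayed at or below 0.8 FPKM in every library, unlike the fourth, of 474 bases, which passed the minimum. That gene held 0.87 and 0.36 FPKM in September, 1.16 and 0.43 in November and 1.84 and 2.29 in February, on 3 to 18 reads. It was higher in February than in September by a log2 change of 0.93 (± 0.28 SE), against the direction of the first gene. Outside February only 1 library, of November, reached 1 FPKM. The gene thus passed the minimum through its high month, so no p is given. At the threshold the change was lost in 4 of 13 alternatives, among them limma-voom on recovered reads. The fifth gene, 225 bases behind the fourth, ran level at 3.53 to 4.65 FPKM through all months, with a February to September log2 fold change of 0.07 (± 0.22 SE, adjusted p by limma = 0.79).

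In the other 5-gene cluster, on scaffold 1624 (plus strand, 25561 to 36819), the first 4 genes stayed at or below 0.21 FPKM in all libraries. The fifth held 0.28 and 0.58 FPKM in September, 1.9 and 1.23 in November and 1.19 and 0.73 in February, on 4 to 31 reads per library. The 4-gene cluster named for having the most genes that passed lay on scaffold 5467 (plus strand, 45186 to 55728). Its first gene held 12.4 and 12.0 FPKM in September, 14.9 and 9.45 in November and 23.2 and 21.2 in February, with February above both other months. The models after it were only 78 and 51 bases long, and their values rested on 0 to 4 reads per library. The fourth stayed at or below 1.15 FPKM.

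The cluster with the highest summed level was a pair on scaffold 7619 (plus strand, 1517018 to 1526119) that owed it to a single gene. Its 3′ gene stayed at or below 0.52 FPKM, while its 5′ gene, 6192 bases upstream, held 4302 and 3406 FPKM in September, 2452 and 3058 in November and 1854 and 2025 in February. All libraries of February were below all of September. The log2 fold change between these months was -0.98 (± 0.30 SE, adjusted p by limma = 0.028), but the call was kept in 6 of 13 alternatives only. It was lost without September 1 (adjusted p = 0.19), September 2 (0.093) or February 1 (0.064), and with median-of-ratios scaling (0.082).

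Among pairs of similar length, the highest level was on scaffold 769 (minus strand, 1131502 to 1140602), where both models had 687 bases. The 3′ gene, which an annotated gene of the other strand overlaps, was listed at 0 in all 6 libraries. The 5′ gene held 273 and 112 FPKM in September, 944 and 673 in November and 297 and 366 in February, and was highest in November. Its November to September log2 fold change was 2.18 (± 0.42 SE, adjusted p by limma = 0.012, and 0.052 without September 2). Equal length thus went with unequal listed levels in this pair. Since reads of overlapping genes cannot be told apart, the 0 may not stand for absent expression.

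Levels within pairs were more alike than between distant neighbours. Where both genes passed, their mean log2(FPKM + 1) differed by a median of 0.96 in close same-strand pairs, against 1.39 in distant same-strand and 1.03 in close opposite-strand pairs. The level difference exceeded 2 on the log2 scale in 103 of 408 close same-strand pairs (25.2%), against 35.8% of distant same-strand and 30.8% of close opposite-strand pairs. In 258 of the 408 pairs (63.2%) both genes had their highest mean level in the same month, against 46.2% of 4661 distant and 56.9% of 295 opposite-strand pairs. Of the 258 pairs, 71 were highest in September, 51 in November and 136 in February. No test was run on these shares, and neighbouring pairs share the same libraries.

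In November relative to September, 219 members rose and 166 fell. These 385 were 28.7% of the members tested, against 30.5% of all 22947 genes tested by limma with Benjamini-Hochberg adjustment and a threshold of 0.05. Rises made up 56.9% of the members called, against 47.8% of all genes called, and all genes gave 14.6% rises and 15.9% falls. At least 4-fold, 37 members rose (2.76%) and 24 fell (1.79%), against 2.87% and 2.51% of all genes tested. The median log2 fold change of members tested was 0.04, against -0.06 over all genes tested. Without September 1 the count of members called was 107 and without September 2 it was 106. Without November 1 falls were about as frequent as rises among the members called. The share of rises over all genes in that run is not given, so whether members still differed from all genes cannot be told.

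Where both neighbours were called between these months, they mostly shared the direction. Of 408 close same-strand pairs with both genes tested, both rose in 31, both fell in 18 and 5 went in opposite directions. In 129 pairs 1 gene was called and in 225 none. Pairs with both genes called in the same direction were 12.0% of close same-strand pairs, against 6.69% of distant same-strand pairs, 11.2% of close opposite-strand pairs and 6.78% of all 8790 pairs of neighbours that did not overlap. Opposite calls were 1.23% of close same-strand pairs, against 3.50% of distant ones, 1.02% of close opposite-strand pairs and 3.73% of all. The count of 49 pairs was 14 without September 1 and 13 without September 2.

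The joint rise with the largest smaller fold change lay on scaffold 1976 (plus strand, 1495092 to 1503717, gap 7567 bases). The 3′ gene, of 648 bases, was listed at 2.02 and 0 FPKM in September, 101 and 58.8 in November and 4.22 and 5.22 in February. The 5′ gene, of 411 bases, held 22.3 and 1.26 FPKM, then 1567 and 1069, then 173 and 203 in the same months. Both genes stood far above September in each November library. Their log2 fold changes from September to November were 5.49 (± 0.53 SE, adjusted p by limma = 0.0017) for the 3′ gene and 7.48 (± 0.95 SE, adjusted p by limma = 0.0035) for the 5′ gene.

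The corresponding joint fall was on scaffold 8492 (minus strand, 1081318 to 1129089, gap 6183 bases). Its 3′ gene held 25.4 and 16.3 FPKM in September, 1.07 and 1.91 in November and 0.93 and 1.97 in February. Its 5′ gene held 37.1 and 24.7 FPKM, then 1.88 and 5.62, then 1.92 and 2.0. Both stayed low in February, after falls into November of -3.12 (± 0.34 SE, adjusted p by limma = 0.0023) and -2.84 (± 0.41 SE, adjusted p by limma = 0.005) on the log2 scale, 3′ gene first.

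The largest opposite movement was found on scaffold 2971 (minus strand, 20508 to 23930, gap 2832 bases), in a cluster of 3 genes. The 3′ gene, of 330 bases, held 12.1 and 11.3 FPKM in September, 1.11 and 1.08 in November and 5.27 and 1.65 in February. The 5′ gene, of 261 bases, held 54.4 and 34.0 FPKM, then 235 and 325, then 32.4 and 54.4. November was thus the lowest month of the first gene and the highest of its neighbour. The within-pair difference, the log2(FPKM + 1) of the 3′ gene minus that of the 5′ gene, changed by -5.26 (± 0.62 SE, adjusted p by limma = 0.0031). That was also the largest change of a within-pair difference between these months.

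In February relative to November, 277 members rose and 192 fell. The 469 called were 34.9% of members tested, against 41.2% of all genes tested, which gave 18.6% rises and 22.6% falls. Rises were 59.1% of the members called, against 45.1% of all genes called. Rises of 4-fold or more were 34 (2.53%) and such falls 23 (1.71%), against 2.41% and 2.85% of all genes tested. The median log2 fold change was 0.08 for members, against -0.10 for all genes. The count of members called was 169 without February 1 and 291 without February 2. This comparison and the preceding one share the November libraries, and all 3 comparisons share libraries with one another.

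In 58 close same-strand pairs both genes rose from November to February, in 24 both fell, and 5 pairs were called in opposite directions. Same-direction pairs were 20.1%, against 13.9% of distant same-strand pairs, 14.9% of close opposite-strand pairs and 13.2% of all pairs of neighbours. Opposite calls were 1.23%, against 6.39%, 3.05% and 6.88% in the same order. The 82 same-direction pairs became 17 without February 1 and 33 without February 2. The share was higher at smaller gaps, with same-direction calls in 30 of 97 pairs up to 1 kb apart (30.9%), 16 of 75 at 1 to 2 kb (21.3%), 23 of 126 at 2 to 5 kb (18.3%) and 13 of 110 at 5 to 10 kb (11.8%). Among same-strand pairs no such order was seen in the comparisons with September. In the same order of gaps the shares were 12.4%, 13.3%, 11.9% and 10.9% for November and 37.1%, 44.0%, 36.5% and 33.6% for February. Close opposite-strand pairs also had their highest shares up to 1 kb apart (138 pairs). For February against November they were 22.5%, 7.5%, 7.25% and 10.4% in the order of gaps. Up to 1 kb and at 5 to 10 kb they were 15.2% and 2.08% for November against September. For February against September they were 38.4% and 18.8%. A higher share at small gaps was thus not particular to same-strand pairs. Up to 1 kb, same-strand shares were higher for February against November only. These bins were chosen after the values were seen and carry no test.

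On scaffold 192 (plus strand, 4002201 to 4010949, gap 5341 bases) both genes rose in February. The 3′ gene held 4.95 and 4.33 FPKM in September, 2.4 and 3.48 in November and 54.3 and 64.9 in February. The 5′ gene held 0.38 and 0.4 FPKM, then 0.29 and 0.64, then 32.2 and 48.5. The rise of the 3′ gene into February was 3.95 on the log2 scale (SE 0.22, adjusted p by limma = 0.00064). That of the 5′ gene was 4.81 (SE 0.27). The 5′ gene passed the minimum through February alone, so no p is given for its rise. From September to November the 3′ gene differed by -0.53 (± 0.22 SE, adjusted p by limma = 0.12). The 5′ gene differed by 0.06 (± 0.27 SE). It stayed below 1 FPKM in every library of these months, so no p is given there either.

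On scaffold 8559 (plus strand, 249327 to 251277) 2 models were only 3 bases apart, and both fell to near 1 FPKM in February. The 3′ gene, of 1056 bases, held 9.2 and 6.55 FPKM in September, 25.9 and 14.6 in November and 0.76 and 0.92 in February. The 5′ gene, of 573 bases, held 4.57 and 2.92 FPKM, then 12.0 and 8.26, then 0.33 and 1.48. Their falls from November were -3.48 (± 0.32 SE, adjusted p by limma = 0.0013) and -2.60 (± 0.37 SE, adjusted p by limma = 0.0037), 3′ gene first. The within-pair difference changed by -0.88 (± 0.34 SE, adjusted p by limma = 0.097), which did not pass.

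Only 1 pair with opposite calls had both genes at 5 FPKM or more in the higher month, on scaffold 2792 (minus strand, 336382 to 349656, gap 8747 bases). The 3′ gene held 12.3 and 10.1 FPKM in September, 5.77 and 7.05 in November and 15.2 and 13.9 in February. The 5′ gene held 46.4 and 38.4 FPKM, then 21.1 and 23.1, then 1.61 and 3.52. Both were lower in November than in September, and their levels crossed in February. From November the 3′ gene rose by 1.07 (± 0.21 SE, adjusted p by limma = 0.0086, and 0.062 without February 1) and its neighbour fell by 2.75 on the log2 scale (± 0.29 SE, adjusted p by limma = 0.0017). The change of their difference, 3.82 (± 0.34 SE, adjusted p by limma = 0.0013), was the largest between these months.

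Over the whole interval, February relative to September, 426 members rose and 322 fell. These 748 were 55.7% of members tested, against 61.0% of all genes tested, which gave 27.1% rises and 33.9% falls. Rises were 57.0% of the members called, against 44.4% of all genes called. Of the members tested, 101 rose (7.52%) and 66 fell (4.91%) by 4-fold or more, against 6.65% and 7.86% of all genes tested. The median log2 fold change was 0.16 for members, against -0.13 for all genes. Median-of-ratios scaling moved the median of all genes by 0.13 and the share of rises to 64.8% in members, against 50.3% in all genes, and upper quartile scaling gave 58.5%, against 45.4%. Counts of members called without a library of these months were 495 and 499 without September 1 or September 2 and 484 without February 1.

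The larger share of rises among members in this comparison was seen in shorter and longer genes. Among genes up to the members' median length, 57.3% of the 321 members called rose, against 43.5% of 3256 other annotated genes called. Among longer genes the shares were 56.7% of 427 members and 44.4% of 9067 others. For November against September they were 60.2% of members and 47.3% of others among shorter genes, and 54.2% and 48.5% among longer ones. For February against November they were 58.2% and 42.0% among shorter genes, and 59.8% and 45.2% among longer ones. This split was chosen after the values were seen and was not tested.

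Both genes rose in 106 close same-strand pairs between September and February and both fell in 46, while 14 pairs went in opposite directions. The 152 pairs with a shared direction were 37.3% of 408, against 25.3% of distant same-strand pairs, 29.8% of close opposite-strand pairs and 24.4% of all pairs of neighbours. Opposite calls were 3.43%, against 13.9%, 8.81% and 14.7% in the same order. Of the 166 close same-strand pairs with both genes called, 91.6% shared the direction, against 64.5% of 1829 distant same-strand pairs and 77.2% of 114 close opposite-strand pairs. The count of 152 was 93 without September 1, 91 without September 2, 83 without February 1 and 94 without February 2. The shared direction among pairs with both genes called stayed at 88.5% to 96.9% over all alternatives of this comparison.

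**Figure D2:**
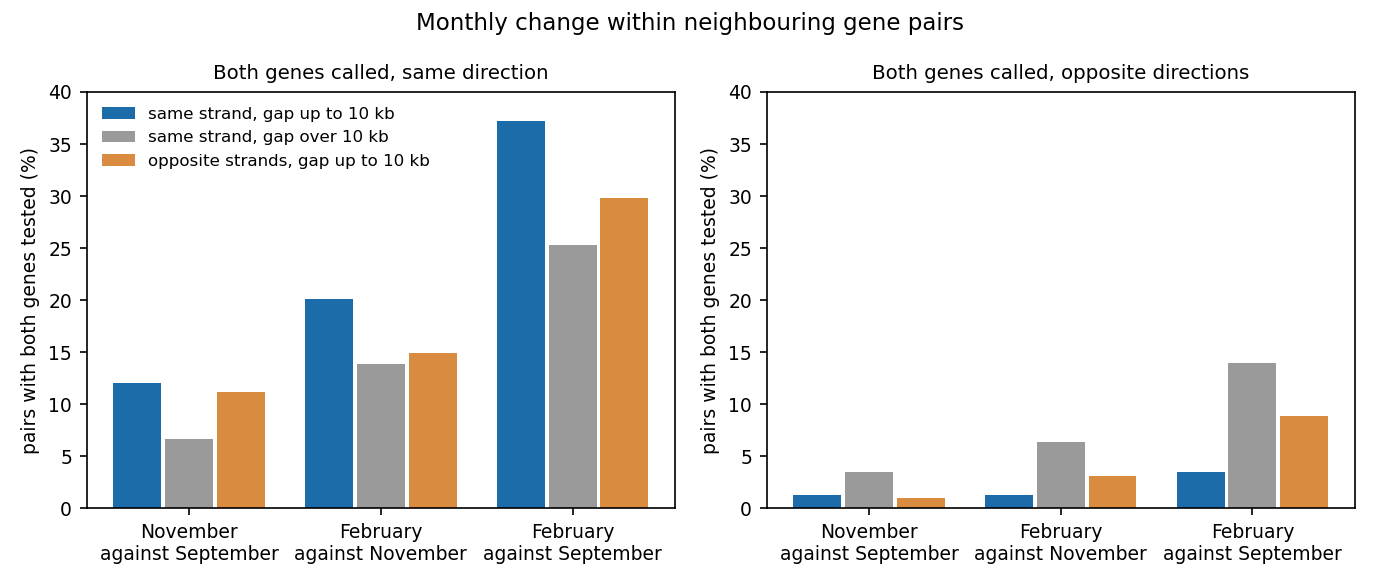
Share (%) of neighbouring pairs with both genes tested in which both were called in the same direction (left) or in opposite directions (right), by comparison. Bars stand for same-strand pairs with a gap up to 10 kb (408 pairs), same-strand pairs with a wider gap (4661) and close opposite-strand pairs (295). Between September and February close same-strand pairs reach 37.3% with a shared direction, against 25.3% of distant pairs, and 3.43% with opposite directions, against 13.9%.

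**Figure D3:**
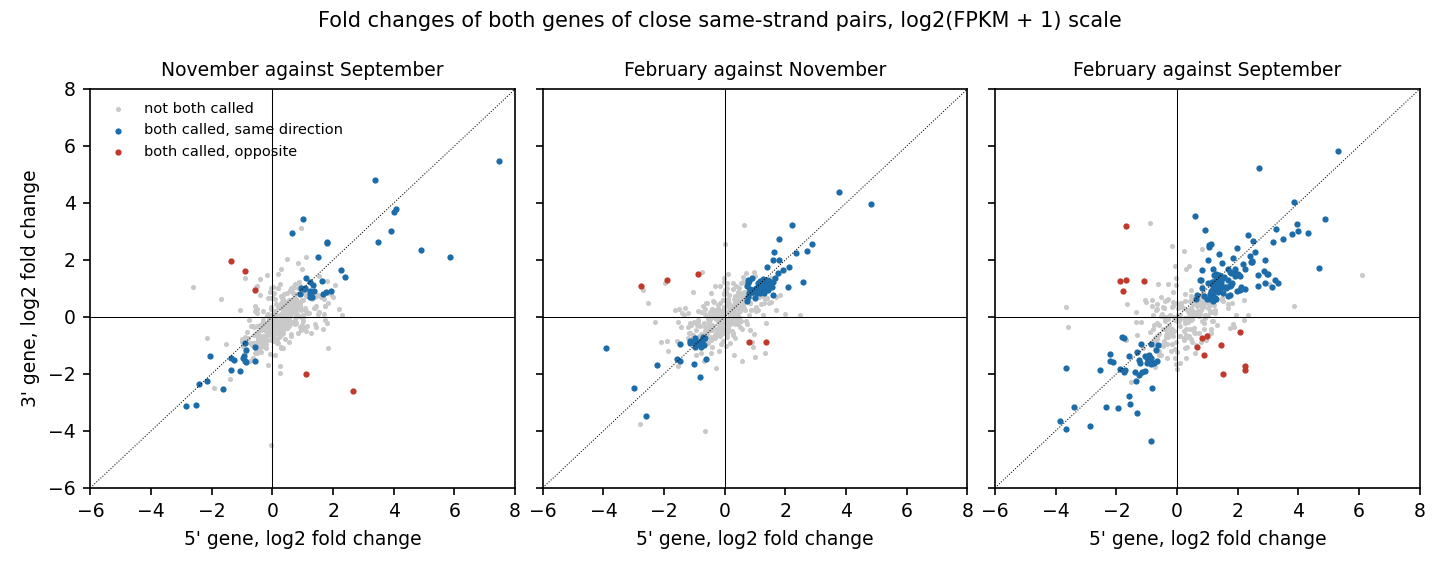
Log2 fold change of the 5′ gene (horizontal) and of the 3′ gene (vertical) on the log2(FPKM + 1) scale in the 408 close same-strand pairs with both genes tested, 1 panel per comparison. Blue points are pairs with both genes called in the same direction (49, 82 and 152, left to right), red points those called in opposite directions (5, 5 and 14), and the dotted line marks equal change.

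The joint rise of Gb_11759 and Gb_11758 on scaffold 19169 (plus strand, 110401 to 112825, gap 771 bases) was the largest by this rule over the whole interval. Gb_11759, the 3′ gene, is a model of only 54 bases and held 7.66 and 3.2 FPKM in September, 14.7 and 16.0 in November and 502 and 227 in February, on 3 to 436 reads. Gb_11758, of 1335 bases, held 9.45 and 10.2 FPKM, then 35.5 and 25.8, then 487 and 372. Both were highest in each February library. The log2 fold change was 5.81 (± 0.45 SE, adjusted p by limma = 0.00022) for Gb_11759 and 5.30 (± 0.22 SE, adjusted p by limma = 9.2e-05) for Gb_11758, and their difference changed by 0.51 (± 0.46 SE, adjusted p by limma = 0.38).

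Gb_32935 and Gb_32934 on scaffold 62956 (plus strand, 147027 to 150895, gap 1906 bases) showed the corresponding joint fall. Gb_32935, of 573 bases, held 21.3 and 14.8 FPKM in September, 5.0 and 10.6 in November and 0.43 and 0.53 in February. Gb_32934, of 1390 bases, held 39.0 and 26.0 FPKM, then 15.7 and 18.3, then 1.07 and 1.43. The months did not overlap in either gene. The falls were -3.66 (± 0.36 SE, adjusted p by limma = 0.00041) for Gb_32935 and -3.87 (± 0.25 SE, adjusted p by limma = 0.00015) for Gb_32934.

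A pair on scaffold 5900 (plus strand, 184647 to 192627, gap 2098 bases) parted in the opposite way. Its 3′ gene, of 405 bases, held 15.5 and 9.96 FPKM in September, 14.0 and 5.41 in November and 3.53 and 2.68 in February. Its 5′ gene, of 2697 bases, held 23.7 and 28.1 FPKM, then 49.2 and 52.0, then 152 and 106. The 3′ gene fell by 1.72 on the log2 scale (± 0.43 SE, adjusted p by limma = 0.013), a call lost without September 1 (0.077), February 1 (0.051) or February 2 (0.075). The 5′ gene rose by 2.25 (± 0.21 SE, adjusted p by limma = 0.00037).

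The largest change of a within-pair difference belonged to 2 models of nearly equal length (1551 and 1662 bases) on scaffold 6716 (minus strand, 25140 to 36772, gap 8298 bases). The 3′ gene, which an annotated gene of the other strand overlaps, stood at 0 and 0.04 FPKM in September, 0.71 and 0.46 in November and 8.37 and 8.26 in February. The 5′ gene stood at 2.9 and 1.7 FPKM in September, on 70 and 49 reads, and was listed at 0 in the other 4 libraries, so no fold change is given for it. The expressed gene of the pair was thus the 5′ gene in September and the 3′ gene in February. The within-pair difference changed by 4.89 on the log2(FPKM + 1) scale (SE 0.30), a size that depends on the pseudocount where a gene is at 0. Each gene passed the minimum only through the month in which it was high, so no p is given.

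**Figure D4:**
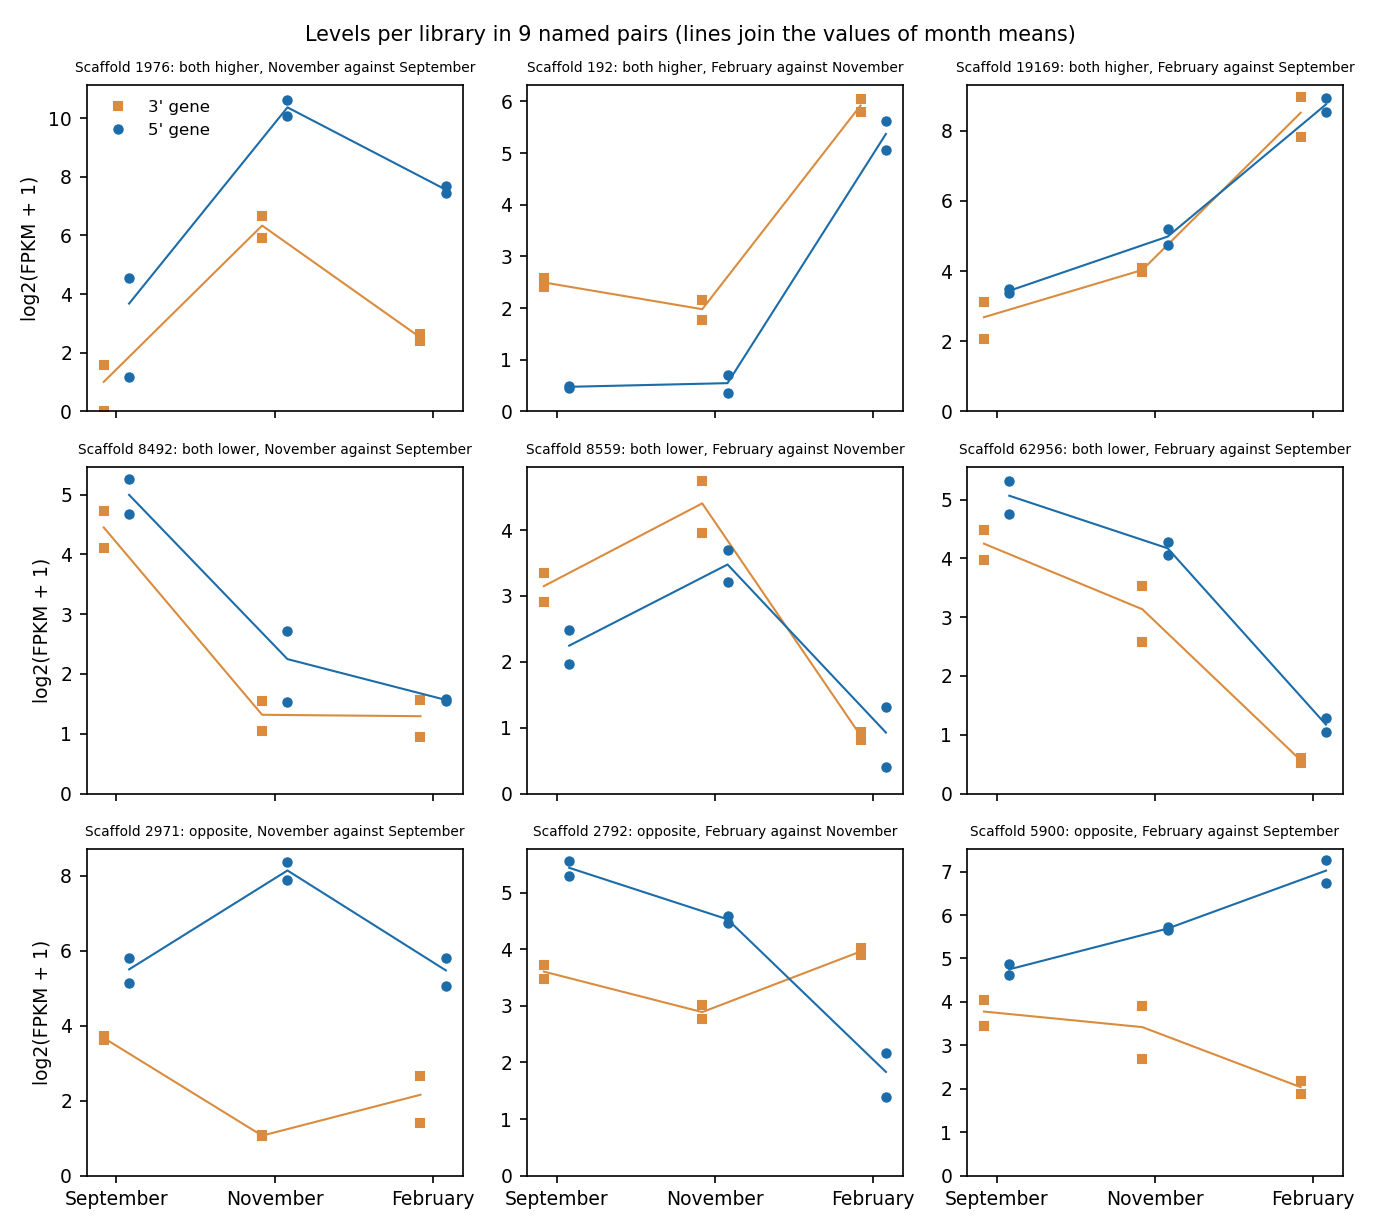
Levels as log2(FPKM + 1) by month in 9 named pairs, 1 panel per pair, titled by scaffold and by the calls that named it. Squares are the libraries of the 3′ gene and circles those of the 5′ gene, 2 per month, and lines join the values of the month means. The pairs in the upper and middle rows move together, and the pairs in the bottom row part in the comparison that named them.

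The change of each within-pair difference was also tested directly, across all 5069 same-strand pairs of any gap with both genes tested. In November relative to September it passed in 73 of 408 close pairs (17.9%), against 27.4% of 4661 distant pairs and 26.7% of all. In February relative to November it passed in 51 (12.5%), against 30.9% of distant pairs and 29.4% of all. In February relative to September it passed in 126 (30.9%), against 51.0% of distant pairs and 49.3% of all. The 73 became 11 without September 1, 13 without September 2, 37 without February 1 and 40 without February 2. The 51 became 12 without February 1 and 26 without February 2. The 126 became 57 without September 1, 76 without September 2, 70 without February 1 and 72 without February 2. Joint change did not exclude unequal change, since the difference also passed in 29 of the 106 pairs in which both genes rose between September and February.

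Changed differences were lopsided along the strand wherever September was compared. The 3′ gene gained on its neighbour in 19 and the 5′ gene in 54 of the 73 pairs between September and November. Between September and February the 3′ gene gained in 35 and the 5′ gene in 91 of 126 pairs. Between November and February the counts were 28 and 23. In distant pairs they were 634 and 644, 1140 and 1235, and 688 and 753 for November to September, February to September and February to November. The share with the 5′ gene gaining was 64.8% to 75.9% over the alternatives for February against September other than a library left out, and 66.7% to 75.7% with a library left out. For November against September it was 45.5% to 72.4% with a library left out. The lowest count of changed pairs there was 11.

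The same shift appeared in single libraries over all 408 pairs. The median level of the 3′ gene minus that of the 5′ gene, as log2(FPKM + 1), was 0.13 and 0.02 in September, -0.26 and -0.23 in November and -0.24 and -0.25 in February. Both September libraries thus stood above the other 4. From September to November the 5′ gene moved up relative to the 3′ gene in 307 pairs (75.2%), called or not, by a median of 0.39, and from September to February in 287 (70.3%), by a median of 0.37. From November to February it did so in 212 (52.0%). Left-out libraries kept the first median change between -0.43 and -0.37 and the second between -0.41 and -0.34.

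The shift was smaller in distant than in close pairs. Between September and November the 5′ gene moved up relative to the 3′ gene in 77.3% of 97 pairs up to 1 kb apart, 74.7% at 1 to 2 kb, 74.6% at 2 to 5 kb and 74.5% at 5 to 10 kb. It did so in 61.9% of 777 same-strand pairs 10 to 50 kb apart, 56.9% of 2307 at 50 to 200 kb and 50.7% of 1577 beyond 200 kb. For September to February the shares were 74.2%, 69.3%, 70.6% and 67.3% in the same order of close gaps, and 70.3% over all close pairs. They were 61.3% at 10 to 50 kb and 51.2% beyond 200 kb. These distance classes were set after the values were seen, the pairs share libraries and genes, and no test was run. The pair with the smallest gap in which both genes passed, 0 bases, lay on scaffold 1977 (plus strand, 671078 to 673440). Its difference changed by 0.28 between September and February (± 0.28 SE, adjusted p by limma = 0.44), which did not pass. An annotated gene of the other strand overlaps its 3′ gene. Its 5′ gene held only 0.42 to 1.87 FPKM, on 4 to 20 reads, so this pair says little about the shift.

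**Figure D5:**
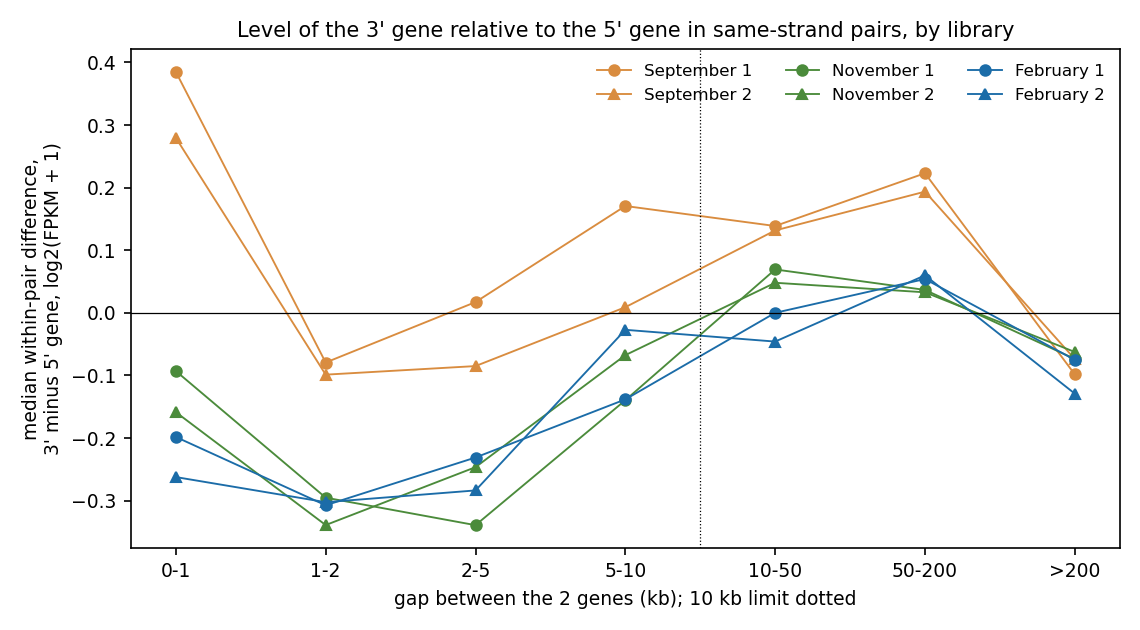
Median level of the 3′ gene minus that of the 5′ gene, as log2(FPKM + 1), over same-strand pairs with both genes tested, by gap class in kb (horizontal) and library (line). The dotted line marks the 10 kb limit. At 0 to 1 kb the September libraries lie at 0.38 and 0.28 and the other 4 between -0.26 and -0.09, and beyond 200 kb all 6 lie between -0.13 and -0.06.

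Pairs of similar length shared a direction about as often as the others. Between September and February both genes were called in the same direction in 13 of 34 pairs with a length ratio of at least 0.9 (38.2%), against 139 of 374 other close pairs (37.2%). In the same order, the shares were 11.8% and 12.0% for November against September and 23.5% and 19.8% for February against November. Of the 46 pairs with identical lengths, 7 had both genes tested. Among them, the pair on scaffold 4926 (plus strand, 1279635 to 1291772, 2925 bases each) moved in step. Its 3′ gene held 1.7 and 2.25 FPKM in September, 2.77 and 2.63 in November and 10.2 and 5.91 in February, and its 5′ gene 2.85 and 3.96, then 5.21 and 3.72, then 17.8 and 10.7. The rises between September and February were 1.57 for the 3′ gene and 1.76 for the 5′ gene, with limma adjusted p-values of 0.0038 and 0.0032.

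Identical lengths also occurred with unlike patterns. On scaffold 3208 (plus strand, 2515769 to 2524542, 486 bases each) the 3′ gene was listed at 0 in both September libraries and held 0.38 and 0.42 FPKM in November and 1.28 and 4.23 in February. The 5′ gene held 11.6 and 8.06 FPKM in September, 39.9 and 33.7 in November and 5.75 and 14.2 in February. November was its highest month, while the 3′ gene was highest in February. The 3′ gene passed the minimum level through its February libraries alone, so its test is not given. The 5′ gene was lower in February than in November by a log2 change of -1.90 (limma adjusted p = 0.011). These 2 pairs of identical length were chosen after their values were seen.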

How the data were processed

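The deposited mRNA table gives FPKM per gene model and library, as computed by the authors, per the file headers. Tools listed in the submitters' processing notes are Bowtie, TopHat2 2.0.12, CASAVA 1.8 and HTSeq 0.6.1, with no role stated. The build, annotation and strand setting were not given in the sources used here. The listed gene length, the other deposited column used, is in bases. The 9 small-RNA libraries were not used here.

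FPKM times length was a whole multiple of 1 step per library, within 0.05 of a read, for all values of annotated models, which gave the reads quoted. Months were compared with limma 3.58.1 in R 4.3.3 on log2(FPKM + 1), which understates changes of low genes. The fit had 1 coefficient per month, all 6 libraries, 3 residual degrees of freedom and a mean-variance trend, on the 22947 genes that reached 1 FPKM in 2 libraries or more. Within-pair differences were fitted likewise over 5069 same-strand pairs. P-values were adjusted by Benjamini-Hochberg within a comparison over all features tested, with a threshold of 0.05. The functions were tested on simulated data. The plan foresaw edgeR only for raw counts, which the table does not hold.

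Members, lists and tests were chosen with earlier results of these data known. Clusters were named by size, level, gap and length, and pairs by the largest joint, opposite or unequal change with at least 5 FPKM in the higher month. Alternatives covered pseudocount, filter, scaling, the replicate block, libraries left out, limma-voom on recovered reads, gap limit and added models. Library numbers did not pair the months by the rule set.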

Additional observations from a re-analysis of the deposited data

How the results depend on the processing

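Of 126 runs of an alternative other than a left-out library, 110 stayed within 1.5 times the reported count or, for levels, within the spread between libraries. With no filter on low values, pairs with a changed difference numbered 133 for November against September, 110 for February against November and 264 for February against September, and opposite pairs for February against November 3. With only the 2 months compared, changed differences numbered 38 for November against September, and opposite pairs 22 for February against September. Limma-voom on recovered reads gave 3 opposite pairs for February against November. With a gap of 5 kb or less there were 1035 clusters, 114 pairs of similar length and 3, 3 and 8 opposite pairs in the order of the comparisons, from fewer pairs, and with 20 kb 2405 clusters. A length ratio of 0.8 gave 367 similar pairs and one of 0.95 gave 136. A pseudocount of 0.1 gave a level difference of 1.29.

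With a library left out, members called ranged from 106 to 390 for November against September, 169 to 440 for February against November and 484 to 831 for February against September. Same-direction pairs ranged from 13 to 47, 17 to 71 and 83 to 171, opposite pairs from 2 to 6, 1 to 7 and 3 to 21, and changed differences from 11 to 64, 12 to 59 and 57 to 152. The lows came without a library of the months compared, which leaves 1 library there that is assumed to vary like the others. The counts of members called without a library stand without the share over all genes in the same runs. They show only how far the counts moved.

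The library number shared across months was no stated pairing. Deviations of same-numbered libraries correlated at -0.09 between November and September, 0.10 between February and November and -0.18 between February and September. With the replicate block the 3 comparisons called 335, 417 and 703 members, within 1.5 times the reported counts. Of 75 calls of named genes and pairs, 49 passed in every alternative in which they were tested, and none changed direction. Some of the 49 were tested in fewer alternatives, 11 in place of 13 for genes and 7 to 10 in place of 12 for pairs. They belong to genes that passed the minimum only through their high month, or to pairs with such a gene. No p is given for these, and their calls say nothing about the alternatives not run. Leaving out members overlapped by a gene of the other strand, an alternative added after the values were seen, moved no count by over 1.5 times. Depth limits what the members at 0 can show.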

Other observations

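Among clusters of 3 genes, 10 had all genes above the minimum level, and in 5 of them all 3 genes had their highest mean in the same month. They were picked with their values in view. On scaffold 1540 (plus strand, 725053 to 735963) all 3 genes rose between September and February. In the order of transcription they held 1.65 and 0.92, 12.7 and 4.89, and 33.9 and 10.5 FPKM in September. In February they held 12.6 and 10.1, 33.1 and 32.9, and 58.2 and 57.0 FPKM. The log2 fold changes of February against September were 2.45 (± 0.51 SE, adjusted p by limma = 0.0066), 1.92 (± 0.47 SE, adjusted p by limma = 0.012) and 1.55 (± 0.47 SE, adjusted p by limma = 0.028).

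On scaffold 687 (minus strand, 428798 to 432637) all 3 genes were lower in February than in September, at low levels. In the order of transcription they held 0 and 0, 0.68 and 0, and 0.42 and 0 FPKM in February, against 1.04 and 0.63, 1.33 and 1.75, and 1.4 and 3.11 FPKM in September. In February no library reached 1 FPKM in any of the 3 genes. They passed the minimum through September and November alone, so no p is given. A further cluster, on scaffold 4046 (plus strand, 658835 to 670890), was uneven. Its last gene held 59.9 and 52.6 FPKM in February, against 8.49 and 12.7 in September. The log2 fold change of that gene was 2.33 (± 0.26 SE, adjusted p by limma = 0.0006). The middle gene, of 177 bases, differed by 0.22 (limma adjusted p = 0.41).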
